A study of Homo sapiens with 24 samples.

Results

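The antigen presentation genes described here are 9 genes of the major histocompatibility complex (MHC) class I pathway, chosen by gene symbol and not by any measured value: HLA-B, HLA-C, B2M, TAP1, TAP2, TAPBP, NLRC5, PSMB8 and PSMB9. Of the 16796 genes listed in at least 1 of the 5 deposited tables, 7 belonged to this set, and B2M was the one member among the 11408 genes listed in the tables of all 4 lines. PSMB8 and PSMB9 were not listed in any table. The study treated 4 human small-cell lung cancer lines with the drug lurbinectedin at 0.1 nM or with its vehicle dimethyl sulfoxide (DMSO) for 24 h, and sequenced total RNA from 3 libraries per group, 24 in all. The 8 groups were lurbinectedin and DMSO in each of SHP-77, H82, H209 and H187. The labels class H209 and H187 as ISL1-high, after the homeobox transcription factor ISL1, and the other pair of lines, SHP-77 and H82, are its ISL1-low class; the replicates are described as biological triplicates. Each line is a culture grown from a single patient's tumour, so a class holds 2 lines and no host tissue.

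MHC class I molecules display peptides from inside the cell to cytotoxic T cells. The proteasome cuts proteins into peptides, the transporter TAP carries them into the endoplasmic reticulum, and tapasin and its partners load them onto a heavy chain (HLA-B or HLA-C) paired with the light chain beta-2-microglobulin. Interferon raises most of these genes, partly through the factor IRF1 and the coactivator NLRC5, and small-cell lung cancer is known for low class I expression. Lurbinectedin is an alkylating agent that binds DNA in the minor groove and impairs transcription.

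Promoters are shown because class I pathway genes are known to share upstream elements, among them an X box, a CCAAT box and sites for interferon-regulated factors. RefSeq (GRCh38.p14) gave windows from 250 bases before to 50 after the start for 8 of the 9 members, in 10 entries, and NLRC5 had no entry. The 4 below belong to genes whose levels are compared between lines, each written 5′ to 3′ on the strand of its gene, with capitals marking matches to any of the 4 motifs searched. They are B2M on the plus strand (chr15:44711267-44711566), and on the minus strand HLA-C (chr6:31272043-31272342), HLA-B (chr6:31357130-31357429) and TAPBP (chr6:33314029-33314328).
B2M: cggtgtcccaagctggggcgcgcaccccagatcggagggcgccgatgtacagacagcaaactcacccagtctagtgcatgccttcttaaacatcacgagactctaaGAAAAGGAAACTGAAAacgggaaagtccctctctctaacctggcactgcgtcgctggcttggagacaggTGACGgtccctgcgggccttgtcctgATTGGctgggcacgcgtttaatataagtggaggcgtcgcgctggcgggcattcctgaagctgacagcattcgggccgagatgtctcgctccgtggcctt
HLA-C: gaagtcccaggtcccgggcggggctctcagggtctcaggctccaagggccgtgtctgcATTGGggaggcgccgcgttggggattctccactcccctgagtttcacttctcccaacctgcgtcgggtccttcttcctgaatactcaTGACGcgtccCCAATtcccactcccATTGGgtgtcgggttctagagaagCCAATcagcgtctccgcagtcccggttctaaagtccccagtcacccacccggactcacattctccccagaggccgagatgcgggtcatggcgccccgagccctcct
HLA-B: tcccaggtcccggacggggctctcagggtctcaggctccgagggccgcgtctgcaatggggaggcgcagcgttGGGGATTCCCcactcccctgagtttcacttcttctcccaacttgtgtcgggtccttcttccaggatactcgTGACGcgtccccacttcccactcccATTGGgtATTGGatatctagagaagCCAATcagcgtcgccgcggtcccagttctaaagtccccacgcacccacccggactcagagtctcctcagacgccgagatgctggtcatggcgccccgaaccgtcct
TAPBP: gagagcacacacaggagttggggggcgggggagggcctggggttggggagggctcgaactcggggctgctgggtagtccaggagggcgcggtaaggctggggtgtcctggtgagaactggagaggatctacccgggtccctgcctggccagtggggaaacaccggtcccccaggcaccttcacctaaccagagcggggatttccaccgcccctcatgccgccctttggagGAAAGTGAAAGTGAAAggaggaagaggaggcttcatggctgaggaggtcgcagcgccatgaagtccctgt

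The motifs, searched on both strands with overlaps allowed, were the interferon-stimulated response element (GAAA, any 2 bases, GAAA), present in 3.57% of 35116 promoter windows of this length, the inverted CCAAT box ATTGG (34.6%), the cyclic AMP response element core TGACG (24.6%) and the kappa B site (GGG, any 2 bases, TTCCC; 2.17%). B2M held 2 overlapping matches to the interferon element, beginning at bases -144 and -138 from the start, with TGACG at -75 and ATTGG at -49. HLA-C and HLA-B resembled each other over 90.9% of aligned bases, with TGACG at -105 in HLA-C and at -106 in HLA-B. Of the pair, the kappa B match at -177 was found in HLA-B alone. TAPBP held 2 overlapping interferon element matches at -20 and -14 and none of the other motifs. A match describes these letters and does not show that a factor is bound.

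The deposited tables themselves list the exons counted for each gene on hg38. HLA-C lies at chr6:31268749-31272136, HLA-B at chr6:31353866-31357245, TAP2 at chr6:32821833-32838823, TAP1 at chr6:32845209-32853971 and TAPBP at chr6:33299695-33314387, all on the minus strand within the MHC. B2M lies on the plus strand at chr15:44711487-44718159 and NLRC5 on the plus strand at chr16:56989485-57083524. The build also carries alternate contigs, which are extra versions of variable regions, and the tables count exons there under the same symbol. TAP1 and TAP2 had exons on 7 such contigs each, HLA-C on 6, HLA-B on 5, TAPBP on 4 and B2M on 1, while NLRC5 had none. These copies made up 85.7% of the exon bases listed for HLA-C, 83.3% for HLA-B, 87.5% for TAP1, 87.4% for TAP2, 80.0% for TAPBP and 50% for B2M.

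Genes with such copies had low counts in these files. Over the 12 lurbinectedin libraries, the median level per kb of exon on the main chromosome was 0.782 CPM (counts scaled by library size) for the 62 genes with 2 or more alternate contigs and 1.35 CPM for the 127 genes with 1, against 8.30 CPM for the 14274 genes with none. A mean under 100 counts was seen in 61.3% of the genes with 2 or more contigs, in 35.4% of those with 1 and in 16.0% of those with none. All 37 genes listed in the MHC region of chromosome 6 had alternate contigs, and 26 of them averaged under 100 counts. RPS9, a ribosomal protein gene with 9 alternate contigs that was chosen after its values were seen, had 3.22 CPM per kb against a median of 497 CPM per kb over 73 cytosolic ribosomal protein genes without such contigs. How reads matching several contigs were counted is not given in the sources used here. For HLA-B, HLA-C, TAPBP, TAP1 and TAP2, a low level across lines and reads lost to alternate copies therefore cannot be told apart, and the same holds for line differences in HLA allele. B2M, with 1 alternate contig, had 42.4 CPM per kb, above the upper quartile of 20.3 CPM per kb of the genes with none. That rank does not show whether B2M lost reads to its alternate copy, which was not tested. HLA-B and HLA-C were further alike over 92.6% of their aligned transcript bases, and 2.0% of the 50-base windows of HLA-C occurred unchanged in HLA-B. Lurbinectedin and DMSO libraries of a line share its alleles.

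**Figure D1:**
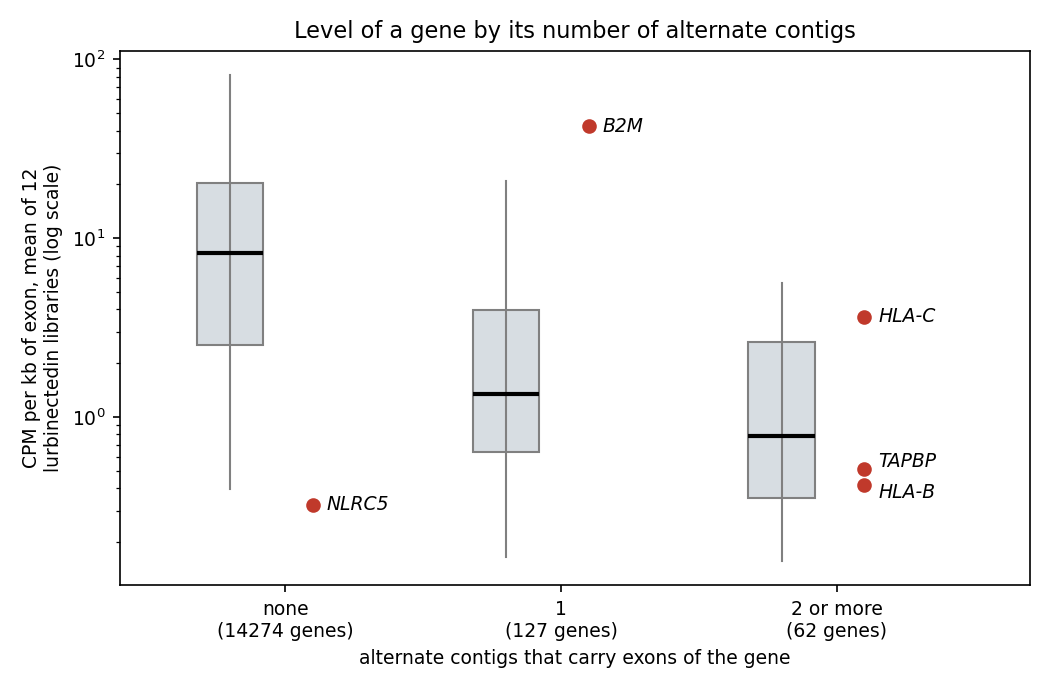
Level of each gene in CPM per kb of exon on the main chromosome, averaged over the 12 lurbinectedin libraries (log axis), by the number of alternate contigs that carry its exons. Boxes span the quartiles with the median as a black line (8.30, 1.35 and 0.782 CPM per kb), thin lines run from the 5th to the 95th percentile, and red points are the 5 members listed for these libraries. HLA-B, HLA-C and TAPBP fall in the group with the lowest median.

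Libraries held 24226553 to 36415190 counts in listed genes, and none were identical. Levels below are CPM on library sizes scaled by the trimmed mean of M values (TMM). Of 8 neuroendocrine markers 7 were listed, and under DMSO NCAM1 averaged 178 to 588 CPM in every line. NEUROD1, a neuronal transcription factor, averaged 0.801 CPM in H187, 12.7 CPM in H209 and 288 CPM in H82. Summed over 9 leukocyte, fibroblast and endothelial markers, of which PTPRC, CD3E and LYZ were not listed, the level was 2.16 to 17.9 CPM per library. In bulk RNA, fewer cells that express a gene and less RNA per cell cannot be told apart.

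No member passed the test for a lurbinectedin effect in any of the 4 lines. The test was edgeR's quasi-likelihood test with Benjamini-Hochberg adjustment over all genes of the table at 0.05, and errors of log2 fold changes are standard errors (SE). It called 0 of 7 members in H187, where it called 24.9% of all genes, 0 of 5 in H209 (45.2% of all genes), 0 of 2 in H82 (2.92%) and 0 of 3 in SHP-77 (5.19%). At an unadjusted p under 0.05 there was 1 member in H187, HLA-C, and 0 in each other line, and DESeq2 called 0 members in every line. DESeq2 gave no adjusted p for TAP1 and NLRC5 in H187, HLA-C in H82 and TAPBP in SHP-77, so it could not call them. Among genes averaging under 100 counts, the share called was lower, at 16.7% in H209, 9.28% in H187, 1.03% in SHP-77 and 0.729% in H82. These include most members tested in H209 and H187, but only TAPBP in SHP-77 and HLA-C in H82. The median log2 fold change of the members listed was 0.02 in SHP-77, 0.07 in H82, -0.05 in H209 and 0.17 in H187, beside 0.00 over all genes in each line.

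**Figure D2:**
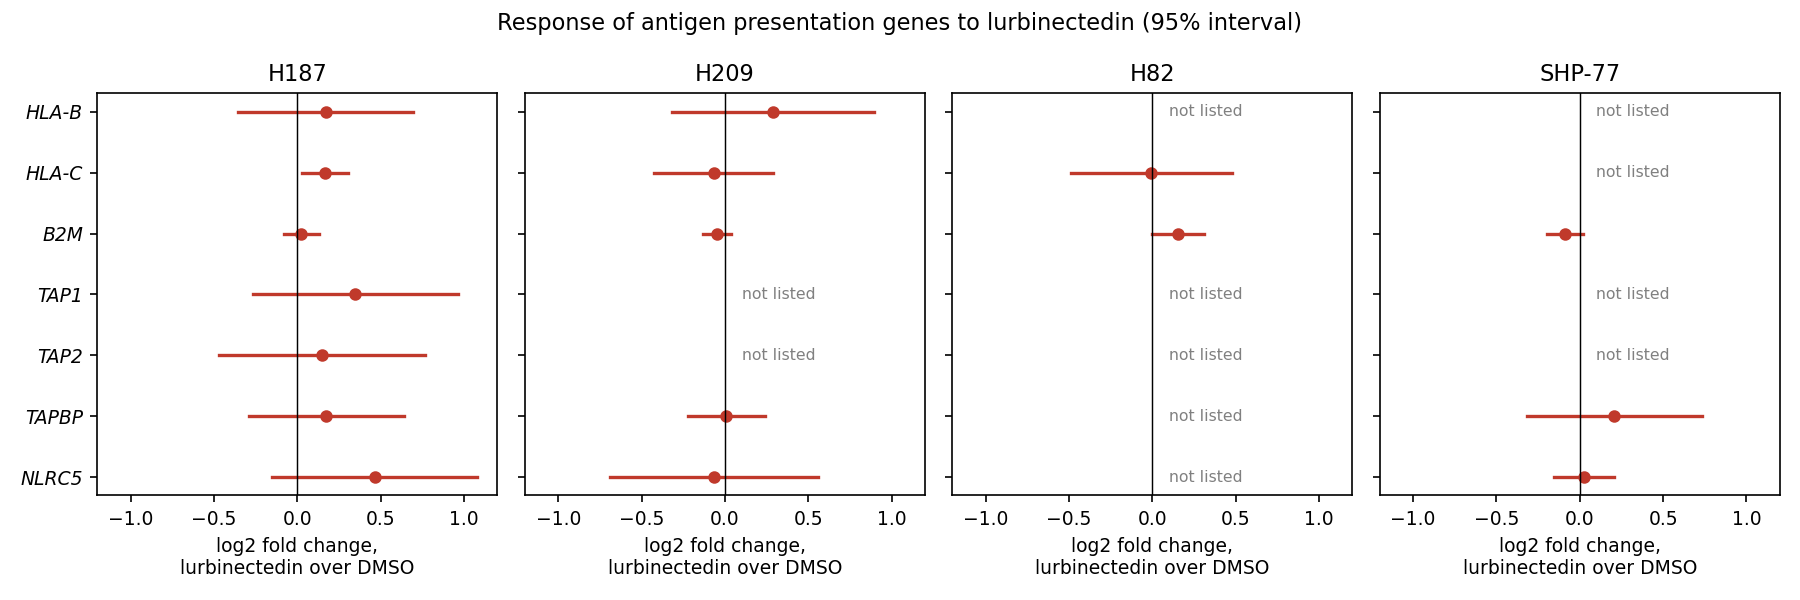
Log2 fold change, lurbinectedin over DMSO, for each member in each line, with its 95% interval from edgeR's fit. The intervals of B2M are the narrowest within each line, that of HLA-C in H187 lies above 0, and grey text marks members not listed in that line's table.

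The light chain gene B2M had the most counts of any member and so the tightest estimates. In H187 it stood at 41.3, 45.2 and 44.0 CPM with lurbinectedin and at 41.7, 42.0 and 45.2 CPM with DMSO. In H209 the values were 53.1, 49.1 and 50.2 CPM with lurbinectedin and 54.8, 49.7 and 54.2 CPM with DMSO. The treated and vehicle libraries overlapped in both lines. SHP-77 libraries had 59.7, 63.5 and 58.2 CPM with lurbinectedin and 58.7, 65.6 and 68.6 CPM with DMSO, again overlapping. In H82 B2M stood at 12.3, 12.3 and 13.0 CPM with lurbinectedin against 11.2, 11.5 and 11.3 CPM with DMSO, so every treated library was above every vehicle library. The log2 fold change there was 0.15 ± 0.08 (SE, n = 3 each; edgeR adjusted p = 0.292). Elsewhere the log2 fold change of B2M came to 0.02 in H187 (95% interval -0.08 to 0.13), -0.05 in H209 (-0.13 to 0.04) and -0.09 in SHP-77 (-0.19 to 0.02). In these 3 lines the intervals leave room for a change in B2M of at most 0.19 on the log2 scale in either direction.

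The heavy chain gene HLA-C was measured with useful depth in H187, with 445 to 646 counts per library. It had 18.8, 19.5 and 20.4 CPM in lurbinectedin libraries against 18.3, 17.3 and 16.9 CPM in DMSO libraries, with no overlap. The log2 fold change was 0.17 ± 0.07 (SE, n = 3 each; 95% interval 0.03 to 0.31), a fold of 1.12, and missed the threshold (edgeR adjusted p = 0.0714). In H209 HLA-C stood at 2.18, 1.78 and 2.49 CPM with lurbinectedin and at 2.47, 2.07 and 2.33 CPM with DMSO. In H82 it stood at 1.15, 0.813 and 1.25 CPM with lurbinectedin and at 1.09, 1.02 and 1.13 CPM with DMSO. Both pairs of groups overlapped, with log2 fold changes of -0.07 ± 0.18 in H209 and -0.01 ± 0.23 in H82.

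HLA-B, the other heavy chain gene listed, had few reads. In H187 it stood at 1.54, 1.51 and 1.23 CPM with lurbinectedin and at 1.77, 1.16 and 0.860 CPM with DMSO, and in H209 at 0.889, 0.849 and 0.956 CPM with lurbinectedin and at 0.937, 0.339 and 1.00 CPM with DMSO. The groups overlapped in both lines. Its log2 fold changes were 0.17 ± 0.25 in H187 and 0.29 ± 0.30 in H209.

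Of the loading genes, TAPBP encodes tapasin, which bridges TAP and the heavy chain. It stood at 5.46, 4.59 and 5.51 CPM with lurbinectedin and at 5.55, 5.37 and 4.73 CPM with DMSO in H209. In H187 the values were 2.14, 1.39 and 2.18 CPM with lurbinectedin and 1.70, 1.28 and 2.03 CPM with DMSO, and in SHP-77 1.24, 0.861 and 1.57 CPM with lurbinectedin and 0.880, 0.972 and 1.37 CPM with DMSO. All 3 pairs overlapped, and the log2 fold changes were 0.01 ± 0.11 in H209, 0.17 ± 0.22 in H187 and 0.21 ± 0.25 in SHP-77. TAP1 and TAP2, which pair to form the peptide transporter, were listed in H187 alone. TAP1 stood at 0.787, 0.833 and 0.789 CPM with lurbinectedin and at 0.835, 0.388 and 0.654 CPM with DMSO there, and TAP2 at 0.900, 0.894 and 1.11 CPM with lurbinectedin and at 0.904, 1.28 and 0.482 CPM with DMSO. With 10 to 35 counts per library, the log2 fold changes of 0.35 ± 0.30 for TAP1 and 0.15 ± 0.30 for TAP2 have 95% intervals that reach 0.96 and 0.77.

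NLRC5, the transactivator of class I genes, was well measured in SHP-77. Its levels there were 7.57, 6.96 and 7.77 CPM with lurbinectedin and 7.30, 7.31 and 7.42 CPM with DMSO, which overlap, with a log2 fold change of 0.02 ± 0.09 (95% interval -0.16 to 0.20). In H187 it stood at 0.712, 0.678 and 0.884 CPM with lurbinectedin and at 0.452, 0.699 and 0.516 CPM with DMSO. In H209 it stood at 0.950, 0.618 and 0.446 CPM with lurbinectedin and at 0.712, 0.833 and 0.573 CPM with DMSO. These groups overlapped too, with log2 fold changes of 0.46 ± 0.30 in H187 and -0.06 ± 0.31 in H209.

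The responses of the members were then compared between lines. The mean effect on B2M in the ISL1-high lines minus that in the ISL1-low lines was -0.04 (95% interval -0.16 to 0.07), so 0 of 1 member was called in a fit that called 31.4% of 11408 genes (15.9% higher, 15.5% lower), at an unadjusted p under 0.05 it was also 0, and the DESeq2 count was 0 as well. For H209 minus H187, 0 of 5 members were called by edgeR, 0 by DESeq2 and 0 at an unadjusted p under 0.05, beside 10.4% of all genes (5.93% higher, 4.42% lower). DESeq2 gave no adjusted p for HLA-B and NLRC5 in that comparison, so it could not call them. For SHP-77 minus H82, B2M differed by -0.25 ± 0.09 (95% interval -0.43 to -0.06). Its unadjusted p was 0.00976 and its adjusted p 0.320, in a fit that called 0.205% of genes, and DESeq2 likewise called 0.

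Levels of the members differed between lines. Under DMSO, B2M averaged 64.3 ± 5.0 CPM in SHP-77, 52.9 ± 2.8 CPM in H209, 43.0 ± 1.9 CPM in H187 and 11.3 ± 0.1 CPM in H82 (SD, n = 3 each), and each neighbouring pair in this order passed the test with no overlap of libraries. The log2 differences were -0.27 ± 0.05 for H209 against SHP-77 (edgeR adjusted p = 1.5e-05), 0.29 ± 0.05 for H209 against H187 (9.8e-06) and 1.91 ± 0.07 for H187 against H82 (6.5e-18). H82 thus had the lowest level of a gene that the other lines carried 3.77-fold to 5.64-fold higher. Whether the lines differ in B2M reads lost to the alternate copy was not tested.

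HLA-C followed another order. Under DMSO it averaged 17.5 ± 0.7 CPM in H187, 2.29 ± 0.21 CPM in H209 and 1.08 ± 0.05 CPM in H82 (SD, n = 3 each), and all pairs passed without overlap. The log2 difference was -2.95 ± 0.11 for H209 against H187 (edgeR adjusted p = 1.7e-18) and 1.06 ± 0.18 for H209 against H82 (3.3e-05). HLA-C was not listed in the SHP-77 table. The class table, which sets the ISL1-high against the ISL1-low lines under lurbinectedin, gave 4, 13 and 9 counts in the SHP-77 lurbinectedin libraries. SHP-77, the line with the most B2M, therefore had the fewest HLA-C reads of the 4 treated lines, at 0.296 ± 0.178 CPM against 1.07 ± 0.23 CPM in treated H82 (SD, n = 3 each), with no overlap in counts; this pair was not tested.

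Under DMSO, HLA-B averaged 0.760 ± 0.366 CPM in H209 and 1.27 ± 0.46 CPM in H187 (SD, n = 3 each). It was lower in H209 by the test (log2 difference -0.79 ± 0.32, edgeR adjusted p = 0.0271), although the libraries overlapped. The adjusted p was 0.232 without H209 DMSO replicate 2, 0.239 without H187 DMSO replicate 1 and 0.0624 in DESeq2. In the treated libraries of the lines whose own tables do not list HLA-B, it had 3, 1 and 4 counts in H82 and 1, 18 and 5 counts in SHP-77, a wide spread in SHP-77.

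TAPBP was highest in H209, at 5.22 ± 0.43 CPM under DMSO, ahead of H187 at 1.67 ± 0.38 CPM and SHP-77 at 1.07 ± 0.26 CPM (SD, n = 3 each). H209 stood above H187 by a log2 difference of 1.62 ± 0.17 (edgeR adjusted p = 1.9e-09) and above SHP-77 by 2.28 ± 0.18 (5.4e-13), with no overlap. The difference of 0.65 ± 0.23 for H187 against SHP-77 passed (adjusted p = 0.0110) with overlapping libraries, and the adjusted p was 0.0849 without H187 DMSO replicate 3 and 0.0542 without SHP-77 DMSO replicate 1. In treated H82 the class table gave 0, 1 and 3 counts.

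NLRC5 singled out SHP-77. It averaged 0.706 ± 0.130 CPM in H209 and 0.556 ± 0.128 CPM in H187 under DMSO, against 7.34 ± 0.07 CPM in SHP-77 (SD, n = 3 each), a log2 difference of -3.35 ± 0.17 for H209 and -3.72 ± 0.18 for H187 (edgeR adjusted p = 1.3e-17 and 1.0e-17). H209 and H187 did not differ beyond their spread (0.35 ± 0.30, adjusted p = 0.273). Treated H82 libraries had 0, 1 and 0 counts of NLRC5. NLRC5 has no alternate contig, so this order does not involve those copies.

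Counted by pair of lines under DMSO, 4 of 5 members passed for H209 against H187, 2 higher and 2 lower, where 85.0% of all genes passed (42.6% higher and 42.4% lower). For H209 against SHP-77 it was 3 of 3 (87.3% of all genes), for H209 against H82 2 of 2 (88.4%), for H187 against SHP-77 3 of 3 (87.2%), for H187 against H82 2 of 2 (87.5%) and for SHP-77 against H82 1 of 1 (88.1%). Most genes differ between these lines, so the members' counts sit near the background.

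**Figure D3:**
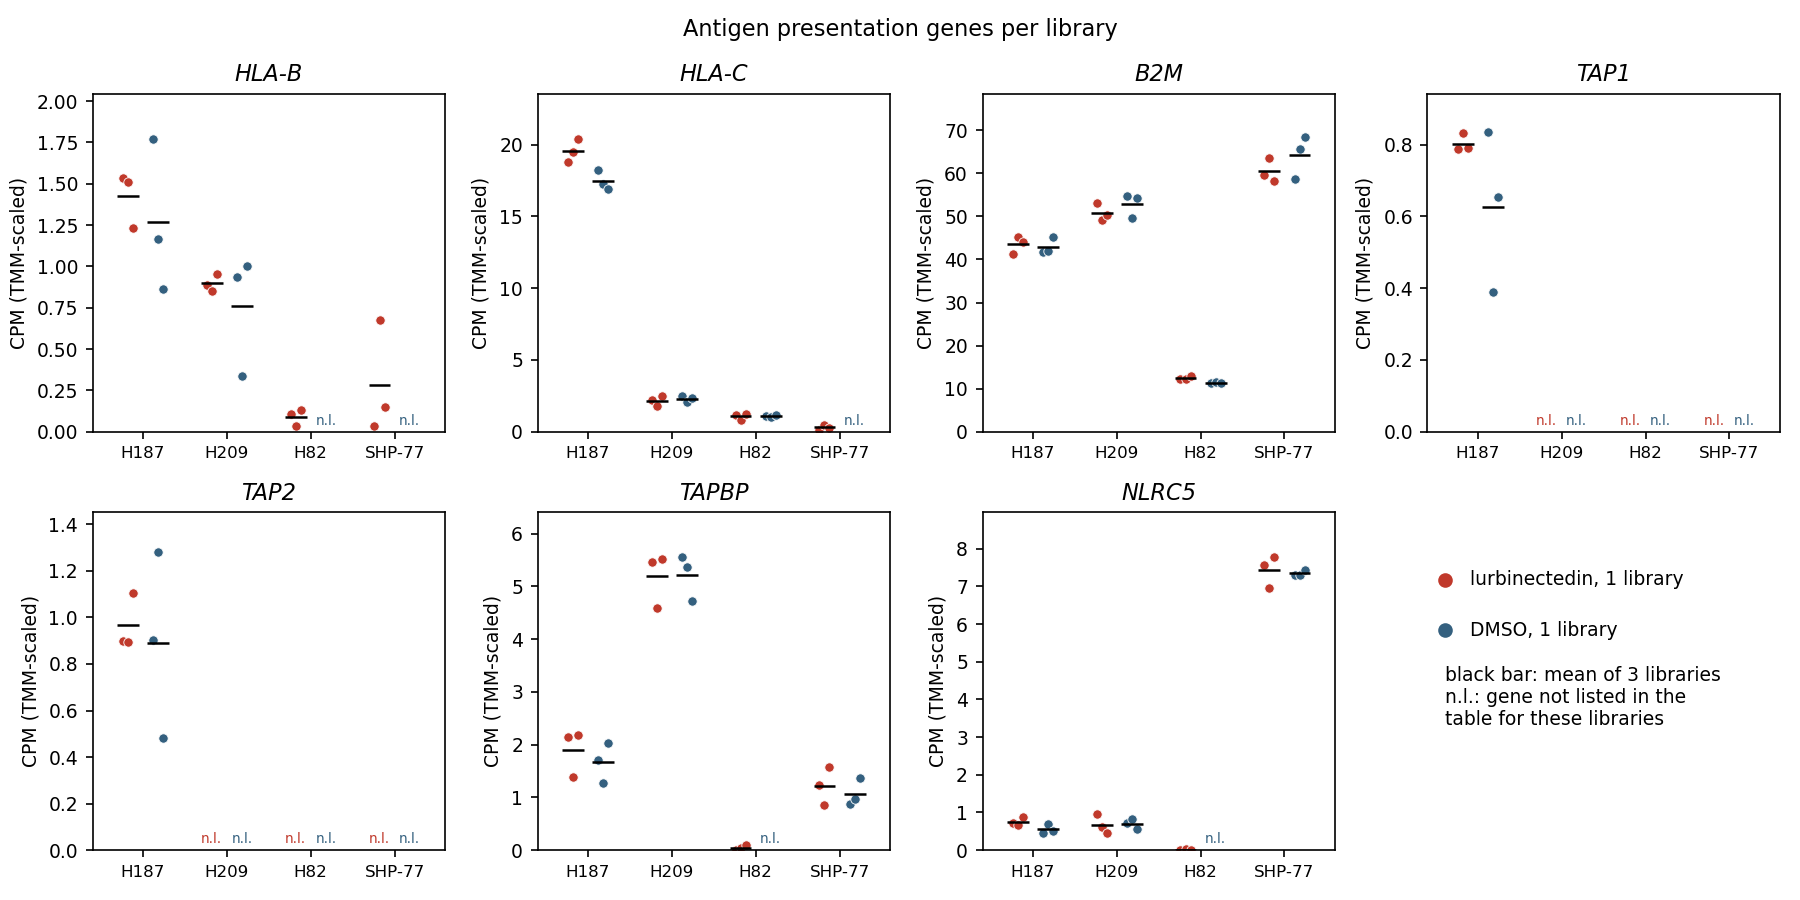
CPM of each listed member in every library, by line, with lurbinectedin (red) left of DMSO (blue), the mean of 3 libraries as a black bar and a separate linear axis per gene. HLA-C stands out in H187, TAPBP in H209 and NLRC5 in SHP-77, B2M is lowest in H82, and n.l. marks groups whose tables do not list the gene.

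The comparison of ISL1-high with ISL1-low lines used the 5 members in the class table under lurbinectedin and B2M under DMSO. Its n is 2 lines per class: the edgeR fit uses the spread between libraries of a line, so its calls hold for these lines and not for a class. Under DMSO the mean of B2M over the ISL1-high lines was above that over the ISL1-low lines by 0.82 ± 0.04 on the log2 scale, a call shared by 89.1% of genes (45.3% higher). The lines were not separated by class, since H209 at 52.9 CPM and H187 at 43.0 CPM lay between SHP-77 at 64.3 CPM and H82 at 11.3 CPM. With 1 value per line limma gave an adjusted p of 0.838, in a fit that called 0 of all genes. Under lurbinectedin the fit called all 5 members listed as higher, where 88.9% of genes passed and 47.0% were higher. With 1 value per line limma called 0 of the 5, at adjusted p of 0.398 to 0.999. That fit called 0 genes of the whole table, so its count says nothing particular to the members. HLA-B had 1 to 18 counts per ISL1-low library and so entered the table through the lines in which it is high, which leaves its count among the 5 as a description. The log2 differences were 3.65 ± 0.24 for TAPBP, 3.52 ± 0.15 for HLA-C, 2.82 ± 0.31 for HLA-B, 1.08 ± 0.50 for NLRC5 and 0.76 ± 0.04 for B2M. These are means over 2 lines on the log scale, so a line close to 0 counts weighs heavily, and H82 had 1 NLRC5 count and 4 TAPBP counts in its 3 libraries together.

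The class difference in NLRC5 was not the same in every fit. Under lurbinectedin it averaged 0.758 ± 0.110 CPM in H187 and 0.671 ± 0.256 CPM in H209, the ISL1-high lines, against 7.44 ± 0.42 CPM in SHP-77 and 0.011 ± 0.019 CPM in H82 (SD, n = 3 each). The authors' deposited table, with its own model, gave -2.37 for NLRC5 (adjusted p = 0.147), and limma on 1 value per line gave 0.01. DESeq2 gave an adjusted p of 0.0505. With edgeR the adjusted p was 0.0593 without H187 lurbinectedin replicate 3, 0.0871 without H209 lurbinectedin replicate 1, 0.131 without H82 lurbinectedin replicate 1 and 0.142 without H82 lurbinectedin replicate 3. For B2M the authors' deposited table gave 0.37 (adjusted p = 0.569), and it called the other 3 members, with 3.95 for HLA-C, 2.62 for HLA-B and 2.47 for TAPBP.

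Among the 10094 protein-coding genes listed in all 4 lines, the 5 whose group means followed B2M most closely over the 8 groups were CD24, FAM174B, FTH1, KLHL2 and JUP, with Pearson r of 0.999, 0.999, 0.999, 0.998 and 0.998 on log2 CPM. CD24 is a surface glycoprotein, FTH1 the ferritin heavy chain and JUP plakoglobin. The 8 points come from 4 lines with 2 treatments each, so these values describe the order of the lines.

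Some other genes of the pathway passed the test. Of 8 further loading and trimming genes, 6 were tested in H209, where 1 rose and 3 fell beside 22.7% of genes higher and 22.5% lower. CALR (calreticulin), PDIA3 (the thiol isomerase ERp57) and CANX (calnexin), chaperones that fold or load the heavy chain, fell by 0.27 ± 0.03, 0.28 ± 0.03 and 0.12 ± 0.03 on the log2 scale (edgeR adjusted p = 1.05e-11, 1.14e-09 and 2.25e-04). All 3 are among the 6250 genes with the highest mean counts in H209, of which 60.2% were called in either direction. TAPBPL, a tapasin relative named after its values were seen, rose by 0.28 ± 0.11 in H209 (adjusted p = 0.0402), and 4 of the 6 fits without 1 library gave adjusted p of 0.0653 to 0.161, those without H209 DMSO replicate 1 or 3 or lurbinectedin replicate 1 or 2. DESeq2 gave an adjusted p of 0.107 for it. In H187 1 of 6 rose and 2 fell, beside 12.2% of genes higher and 12.7% lower, and all 6 had an unadjusted p under 0.05. TAPBPL was not called there by edgeR, though its libraries did not overlap. It stood at 11.1, 10.5 and 10.1 CPM with lurbinectedin against 8.87, 9.51 and 8.53 CPM with DMSO. The authors' deposited table gave 0.24 for TAPBPL in H187 (adjusted p = 0.0346). There CALR fell by 0.17 ± 0.03 (adjusted p = 8.4e-04) and ERAP2, a peptide-trimming aminopeptidase, rose by 0.17 ± 0.04 (0.00608). CANX fell by 0.10 ± 0.04 in H187 (0.0411), with adjusted p of 0.0816 to 0.229 without DMSO replicate 3 or any 1 of the lurbinectedin replicates and 0.0949 in the authors' deposited table. By edgeR 0 of 5 genes in H82 and 0 of 6 in SHP-77 passed, with 0 at an unadjusted p under 0.05 and 0 by DESeq2 in both lines. The list's median log2 fold change was -0.01 in SHP-77, 0.00 in H82, -0.08 in H209 and 0.01 in H187.

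PSMB8 and PSMB9, the members that replace constitutive catalytic subunits in the immunoproteasome, were not listed, so their partners were measured instead. Both genes lie near TAP1 and TAP2 in the MHC region, where all 37 listed genes had alternate contigs. Whether reads of PSMB8 and PSMB9 were lost to such copies was not tested, so their absence does not show a lack of expression. The third inducible subunit PSMB10 and the interferon-inducible activator genes PSME1 and PSME2 did not pass in any line. PSMB10 averaged 2.87 ± 0.17 CPM with lurbinectedin and 3.25 ± 0.34 CPM with DMSO in H209, and 12.8 ± 1.0 CPM with lurbinectedin and 11.2 ± 0.8 CPM with DMSO in H82 (SD, n = 3 each). The constitutive catalytic subunits PSMB6, PSMB7 and PSMB5 fell in H209 by 0.22 ± 0.03, 0.20 ± 0.03 and 0.15 ± 0.03 (edgeR adjusted p = 3.4e-07, 1.2e-06 and 3.4e-04), which made 3 of 6 lower. These subunits too are among the 6250 genes with the highest mean counts in H209, of which 60.2% were called in either direction. PSMB6 stood at 83.6, 86.2 and 83.3 CPM with lurbinectedin against 99.6, 99.5 and 97.3 CPM with DMSO there, with no overlap. In H187, H82 and SHP-77 0 of these 6 passed by edgeR and 0 by DESeq2, and at an unadjusted p under 0.05 there was 1 in H187, 1 in H82 and 0 in SHP-77. The medians were 0.02 in SHP-77, -0.00 in H82, -0.16 in H209 and -0.06 in H187.

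Most genes of the rest of the 20S proteasome core fell in H209. Of 10 genes tested 8 fell there, where 22.5% of all genes were lower. Among the 6250 genes with the highest mean counts in H209, 60.2% were called in either direction. PSMA4, PSMA2, PSMA5 and PSMB2 belong to these, so the share over all genes is no like background for them. In H187 2 fell, near the 12.7% of all genes lower, while in H82 and SHP-77 0 passed by edgeR, 0 by DESeq2 and 0 at an unadjusted p under 0.05. The median log2 fold change was -0.14 in H209, -0.09 in H187 and 0.00 in H82. PSMA4, PSMA2, PSMA5 and PSMB2 fell in H209 by 0.25 ± 0.03, 0.23 ± 0.03, 0.21 ± 0.04 and 0.15 ± 0.03. PSMA2 also fell in H187 (0.15 ± 0.04 lower on the log2 scale, adjusted p = 0.0179), where the adjusted p was 0.0601 to 0.0706 without DMSO replicate 1 or lurbinectedin replicate 1 or 2. The response of the core differed by class for 8 of 10 genes, all lower in the ISL1-high lines, where 15.5% of all genes were lower.

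Among the pathway lists, the largest log2 fold change in H209 and in H187 was that of IRF1. This interferon-regulated activator stood at 15.5, 15.1 and 15.9 CPM with lurbinectedin against 8.55, 8.49 and 7.74 CPM with DMSO in H209, a log2 fold change of 0.92 ± 0.08 (n = 3 each; edgeR adjusted p = 1.5e-13). In H187 it stood at 19.9, 25.2 and 21.8 CPM with lurbinectedin against 15.7, 14.6 and 15.7 CPM with DMSO, a change of 0.55 ± 0.08 (2.5e-05). Neither line's groups overlapped. In H82 the values were 2.13, 2.21 and 1.98 CPM with lurbinectedin and 2.18, 1.88 and 2.23 CPM with DMSO, and in SHP-77 12.6, 13.6 and 13.6 CPM with lurbinectedin and 14.2, 12.3 and 13.2 CPM with DMSO. Both pairs overlapped, with changes of 0.02 ± 0.17 and 0.01 ± 0.07. The members B2M, HLA-C, TAPBP and NLRC5 did not pass in the lines in which IRF1 rose, and whether their response differs from that of IRF1 was not tested.

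Of the 17 regulators tested in each line, 4 rose and 2 fell in H209, where 22.7% of all genes were higher and 22.5% lower, so the list was near the background. In H187 3 rose and 1 fell, again near the 12.2% of genes higher and 12.7% lower. Another 1 rose in H82 (1.55% of all genes were higher there) and 0 passed in SHP-77 by edgeR, with 4 at an unadjusted p under 0.05 and 0 by DESeq2. The medians were 0.03 in H209, 0.06 in H187, 0.02 in H82 and -0.02 in SHP-77. RELA, a subunit of NF-kB, rose by 0.26 ± 0.03 in H209 and 0.22 ± 0.05 in H187. RFXAP, a subunit of the factor that binds the X box, rose by 0.41 ± 0.08 in H209 (edgeR adjusted p = 2.1e-05). NFYA, which binds the CCAAT box with its partners, fell by 0.30 ± 0.03 in H209 and 0.17 ± 0.04 in H187. The call in H82 was IFNGR2, a chain of the interferon gamma receptor named after its values were seen. IFNGR2 has exons on 1 alternate contig. It rose by 0.79 ± 0.21 (edgeR adjusted p = 0.0475), but the adjusted p was 0.378 in DESeq2, 0.0541 among genes with a mean of at least 1 CPM, and 0.160 to 0.229 without DMSO replicate 1 or 2 or lurbinectedin replicate 2 or 3.

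EZH2, the catalytic subunit of the Polycomb repressive complex that can silence class I genes, rose in H209 by 0.42 ± 0.03 (edgeR adjusted p = 1.1e-14). It stood there at 154, 155 and 149 CPM with lurbinectedin against 117, 112 and 115 CPM with DMSO. In H187 it rose by 0.14 ± 0.05 (0.0243), with adjusted p of 0.0651 to 0.102 without DMSO replicate 2 or 3 or lurbinectedin replicate 1 or 3. Its partner EED rose by 0.19 ± 0.05 in H187 (0.0101). SUZ12 rose by 0.09 ± 0.03 in H209 (0.0158), and its adjusted p was 0.0710 without DMSO replicate 1 and 0.0856 without lurbinectedin replicate 1. In all, 2 of 3 genes of the complex rose in H209 (22.7% of all genes higher) and 2 in H187 (12.2%), with medians of 0.09 and 0.14. EZH2 and SUZ12 are among the 6250 genes with the highest mean counts in H209, of which 60.2% were called in either direction. In H82 and SHP-77 0 passed by edgeR and 0 by DESeq2, with 1 in H82 and 0 in SHP-77 at an unadjusted p under 0.05, and the medians were -0.03 and -0.01.

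**Figure D4:**
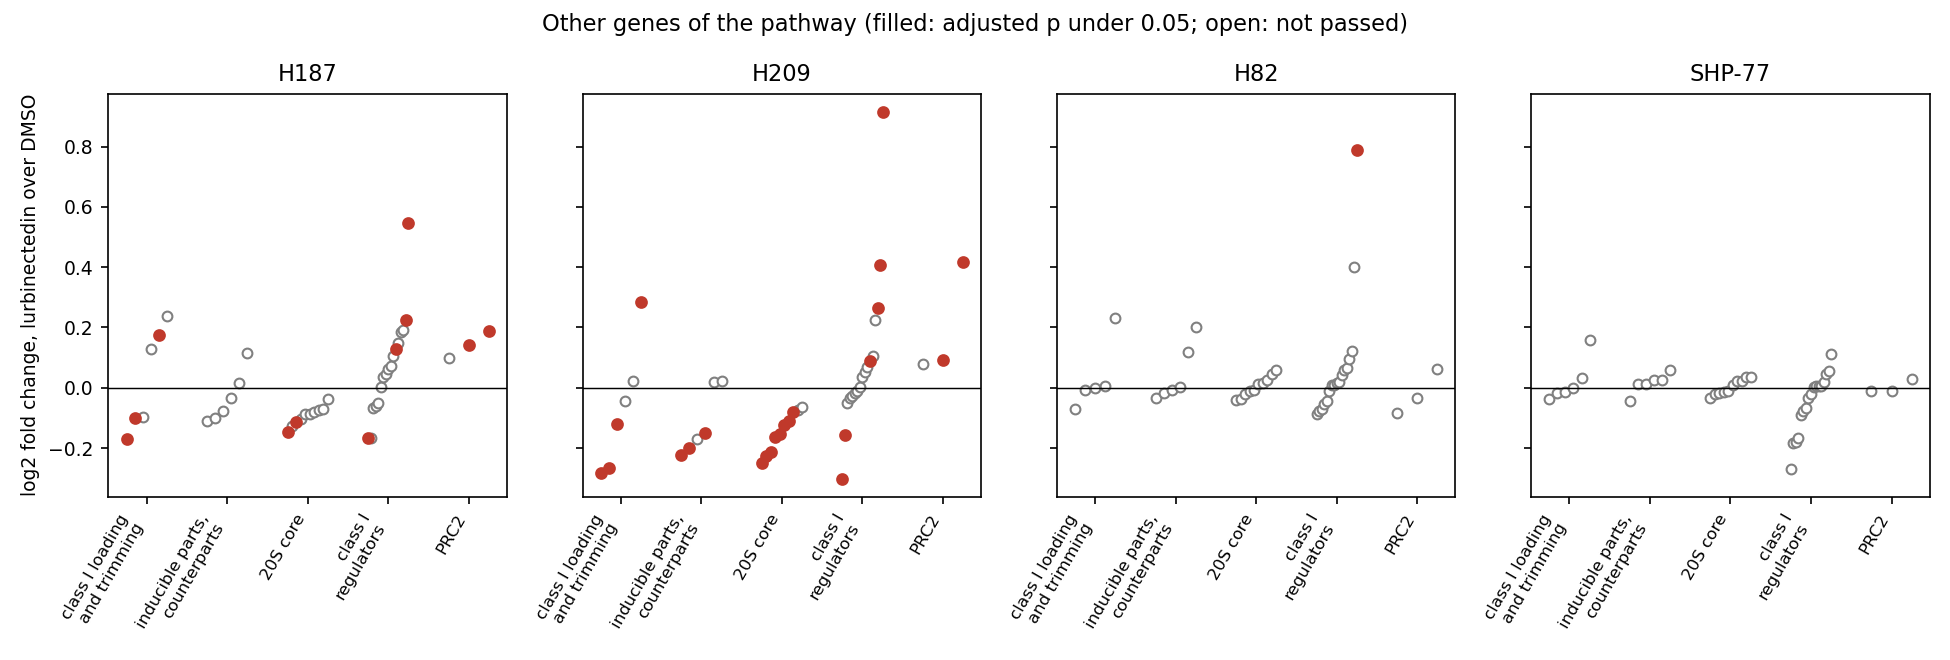
Log2 fold change, lurbinectedin over DMSO, of each gene of 5 lists around the class I pathway, by line, sorted within a list. Filled red points passed edgeR's test at an adjusted p of 0.05 and open points did not. IRF1 is the highest point of H209 at 0.92 and of H187 at 0.55, and 8 of 10 genes of the 20S core lie below 0 and filled in H209.

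Class II genes, which present peptides to helper T cells, were barely listed. Of 10 genes 2 were tested in H187, 1 in H82 (HLA-DQB1), 1 in SHP-77 (the class II transactivator CIITA) and 0 in H209. HLA-DQB1, a class II chain with exons on 2 alternate contigs, stood in H187 at 11.2, 12.2 and 10.9 CPM with lurbinectedin against 8.76, 9.24 and 9.53 CPM with DMSO, with no overlap. It rose by 0.32 ± 0.09 on the log2 scale (edgeR adjusted p = 0.00856), and the adjusted p was 0.0536 without lurbinectedin replicate 2. HLA-DRB1 in H187, with exons on 6 alternate contigs (0.44 ± 0.23), HLA-DQB1 in H82 (0.49 ± 0.29) and CIITA in SHP-77 (-0.01 ± 0.20) did not pass.

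Markers of other cell types were also compared between treatments. The summed level of the leukocyte, fibroblast and endothelial markers was 7.22 to 7.97 CPM with lurbinectedin and 5.66 to 6.45 CPM with DMSO in H209, and 3.48 to 4.35 CPM with lurbinectedin and 2.16 to 2.79 CPM with DMSO in H82. In H187 it was 16.5 to 17.5 CPM with lurbinectedin and 15.1 to 17.9 CPM with DMSO, and in SHP-77 7.64 to 14.3 CPM with lurbinectedin and 8.34 to 8.47 CPM with DMSO. The 2 treatments were not summed over the same genes. Markers missing from a line's own table were taken from the class table, which holds lurbinectedin libraries alone. Under DMSO such markers counted as 0, so a higher treated sum does not by itself show a rise. CD68 rose in H209 (0.84 ± 0.21, edgeR adjusted p = 8.5e-04), making 1 of 4 tested. CD68, a macrophage marker, was named after its values were seen, and the part of these markers in the results above was not tested.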

How the data were processed

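Total RNA of 24 libraries (4 lines, 2 treatments, 3 replicates) was compared from 5 tables. The tools listed, per the submitters' processing notes, are featureCounts from Subread 2.0.3, STAR 2.7.10a and edgeR 4.2.0, with the build hg38. The annotation, strand setting, low-count filter and treatment of reads matching several places are not given in the sources used here, so overlapping or antisense genes could share reads. Per the file headers, the authors deposited raw counts per gene and library, their log2 CPM and log2 fold change, a signed fold change (a score, negative where lower), and a p-value with its FDR. The counts were used here. The authors' log2 fold change and FDR serve as an alternative, and their log2 CPM and signed fold change were not used.

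Genes were filtered with filterByExpr (minimum count 10, minimum total 15), scaled by TMM and tested with edgeR 4.0.16 (glmQLFit, glmQLFTest) in R 4.3.3, with Benjamini-Hochberg adjustment over all genes tested and a threshold of 0.05. Each line was fitted alone. Response differences used a mean per line and treatment, class differences a mean per line on 12 libraries, so they hold for these 4 lines. Line pairs were fitted on their 6 DMSO libraries and the genes both tables list. Adjusted p-values without a named tool are edgeR's. They measure the spread between these libraries. Alternatives were RLE size factors, no filter, a mean of at least 1 CPM, DESeq2 1.42.0, a replicate block, all 24 libraries in 1 fit, limma 3.58.1 on 1 value per line, the authors' deposited table and each library left out. On simulated counts with 200 changed genes (log2 size 1) the H209 fit over 14421 genes recovered 94.5%.

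Named were the 9 members, up to 4 genes a list with the smallest p in H187 and H209, and the 5 genes most like B2M, by Pearson r on log2(CPM + 0.5). Exceptions are said to have been chosen after their values were seen, and results for some listed genes are not reported here. The members and gene lists were chosen with earlier results of these data known.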

Additional observations from a re-analysis of the deposited data

Results flagged for a closer look

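The following genes are listed because their response to lurbinectedin differed between lines by edgeR's test of the difference itself. They had been named for the smallest p of their list in H187 and H209, the ISL1-high lines. That choice favours a difference between lines, so the shares of all genes given here are no like background for them. None is a member of the set, and no explanation was tested. For the ISL1-high minus the ISL1-low response, where 15.9% of all genes were higher and 15.5% lower, the log2 difference was 0.72 for IRF1, 0.47 for RFXAP, 0.30 for EZH2, 0.22 for RELA and 0.14 for SUZ12. It was negative for the chaperones CALR (-0.21) and PDIA3 (-0.17) and for NFYA (-0.17). The proteasome genes were also lower, at -0.17 for PSMA5, -0.16 for PSMA2, -0.16 for PSMB6, -0.14 for PSMA4, -0.14 for PSMB5, -0.11 for PSMB7 and -0.11 for PSMB2. Adjusted p-values ran from 9.4e-08 for EZH2 to 0.0185 for PSMB7.

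The response in H209 minus that in H187 was 0.37 for IRF1 (adjusted p = 0.0307), 0.28 for EZH2 (5.8e-04), -0.18 for PDIA3 (0.0279) and -0.21 for PSMA4 (0.00913), where 5.93% of all genes were higher and 4.42% lower. For IRF1 the adjusted p was 0.0578 to 0.109 in 8 of the 12 fits that each left out 1 library, those without replicate 1 or 3 of H187 in either treatment, H209 DMSO replicate 2 or 3, or H209 lurbinectedin replicate 1 or 3. For PDIA3 it was 0.0642 to 0.106 without H187 DMSO replicate 2, H187 lurbinectedin replicate 2 or 3, H209 DMSO replicate 1 or H209 lurbinectedin replicate 2. With 3 libraries per group, single libraries were not screened as outliers.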

How the results depend on the processing

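The members had 46 fitted log2 differences, 21 of them called. Over all alternatives the called ones kept direction and call in 238 of 256 refits, lost the call in 17 and reversed in 1, the NLRC5 class difference of -2.37 in the authors' deposited table. Those not called gained no call in 336 refits and changed sign in 16. The count of members called stayed at 0 in every line and every response difference under each alternative and with each library left out. For DESeq2 this leaves out the members named above to which it gave no adjusted p. With limma on 1 value per line, the count of members called between classes was 0 both under DMSO and under lurbinectedin, and the authors' deposited table called 3. Replicate numbers did not pair the libraries: same-numbered libraries had correlations of -0.28 to 0.21, with 1 of 12 pairs over 0.1, and with the replicate block 0 members were called in any line or response difference. The block gave adjusted p of 0.0632 for EZH2, 0.0678 for CANX and 0.0592 for PSMA2 in H187 and 0.0550 for PDIA3 in H209 minus H187, all called without it. Counts over all genes moved by over 1.5 times in H82, with 395 genes called against 755 with the replicate block, 643 with 24 libraries in 1 fit, 652 in the authors' table and 93 to 1397 with 1 library left out, and in SHP-77, with 737 against 451 in the 24-library fit and 417 to 706 with 1 library left out. They also moved for SHP-77 minus H82, with 25 against 44 in DESeq2, 16 with the block and 9 to 113 with 1 library left out, and for the classes under lurbinectedin (12858 against 5478 in the authors' table and 0 with limma) and under DMSO (10159 against 0 with limma). The cause was not tested. Of 49 called values of named pathway genes 39 kept their call throughout. Depth limits TAP1, TAP2, HLA-B and, outside SHP-77, NLRC5: at 10 to 51 counts per library the upper 95% bounds of their lurbinectedin effects lay between 1.48-fold and 2.11-fold.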
